A study of Homo sapiens with 6 samples.

Results

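The hexosamine and sialic acid synthesis genes are 9 genes whose enzymes make, salvage, attach or convert the activated amino sugar UDP-GlcNAc: NAGK, GFPT1, GNPNAT1, PGM3, UAP1, OGT, GNE, NANS and CMAS. They were taken from the deposited table by symbol. All 9 were found among 26699 rows, and 8 of them were among the 15562 genes abundant enough to be tested. The 9 were proposed with results of the same comparison in view, so their differences between the groups are given as a description, with standard errors (SE) and without p-values.

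The cells were OVCA433, a long-established line from a human ovarian cancer. RNA-seq covered 3 libraries with the genotype label OVSOGA1sinc and 3 with the label OVSOGA1si, called sinc and si here. No further treatment, dose or time is given for either group, and neither name nor the reagent behind it is spelled out. Per its title, the series is about ovarian cancer cells deficient in SOGA1, which encodes a protein with coiled coils. Whether the 3 libraries of a group were separate cultures is not stated in the labels. All errors therefore rest on the spread between these libraries, which may be technical.

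UDP-GlcNAc is made from a fructose phosphate and glutamine. GFPT1 carries out the first, rate-limiting step, GNPNAT1 acetylates the product, PGM3 moves its phosphate and UAP1 joins it to a uridine nucleotide. NAGK phosphorylates free N-acetylglucosamine, released when glycoproteins and glycolipids are broken down, and so returns it to the same route ahead of PGM3. OGT attaches the sugar to serines and threonines of nuclear and cytosolic proteins, and enzymes of the secretory route build it into glycans. GNE turns UDP-GlcNAc towards sialic acid, NANS condenses the sialic acid skeleton and CMAS activates it for transfer onto glycans.

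NAGK carries a run of 13 bases that is also found in the SOGA1 transcript. The run lies in the coding sequence of NAGK, in exon 9 of 10 (chr2:71077620-71077632, plus strand, GRCh38). In SOGA1 it lies within a stretch of 21 coding bases in exon 5 of 15 (chr20:36816186-36816206, minus strand, GRCh38). That stretch was picked from the fold changes of this comparison, as the 21 bases that end with the 7-base sequence whose 3' UTR carriers lay lowest in si. The sequences below, from the GENCODE 29 transcripts, are shown 5′ to 3′ because their carriers are described in what follows. In the first 3 lines the capitals mark bases identical to the SOGA1 stretch in a row, with the bases NAGK shares set in capitals for SOGA1. In the last 2 lines they mark the 7-base end of the stretch alone.
SOGA1: gaaggaGGAGCTGCTGAAGta
NAGK: gagctgGGAGCTGCTGAAGga
MGAT5: ggacaaggacaTGCTGAAGTA
UAP1: aagtttgtggtataTGAAGTA
GNPNAT1: cctggtcaacctttTGAAGTA

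SOGA1 (ENSG00000149639) was lower in every si library, as the labels imply. It stood at 64.4, 59.7 and 63.9 CPM (counts as a share of the TMM-scaled library total) in sinc replicates 1, 2 and 3, and at 25.3, 27.2 and 20.2 CPM in si replicates 1, 2 and 3. Its log2 fold change, si minus sinc, was -1.37 (SE 0.11, adjusted p = 0.000963, edgeR's quasi-likelihood test, adjusted by Benjamini-Hochberg across the genes tested). By an exact permutation test on CPM, two-sided, p was 0.1, and groups of 3 cannot give a smaller one.

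Total counts ranged from 33778707 to 44130601 per library. Of the genes tested, 10.1% passed the threshold of adjusted p under 0.05, 645 higher and 934 lower in si; with upper-quartile scaling the split was 1005 and 890. Leaving out 1 library moved the count of 1579 to between 203 and 2563. Among 6 markers of epithelial ovarian cancer with a row, KRT8, KRT18 and PAX8 were abundant, EPCAM stood between 0.95 and 2.21 CPM, and WT1 had counts in 1 library only. CDH1 and MUC16, on the same list, had no row. The 6 markers with a row summed to between 4687 and 4981 CPM in sinc and between 4730 and 5069 CPM in si. Most of this came from KRT8, KRT18 and PAX8. PTPRC and COL1A2, on the list of other cell types, also had no row. Of 7 markers of other cell types with a row, 4 stayed under 1 CPM in every library, 0 were at 0 in all, and the sum was 186 to 194 CPM in sinc and 223 to 247 CPM in si. Most of that sum was COL1A1, a collagen gene, which rose by 0.34 on the log2 scale (SE 0.06, adjusted p = 0.0172, edgeR). ACTA2 averaged 65.3 CPM in sinc and 84.5 CPM in si, without passing (log2 fold change 0.37, SE 0.10, adjusted p = 0.0558, edgeR). CD68 averaged 21.7 CPM in sinc and 22.7 CPM in si. The part of these markers in the results was not tested.

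NAGK and UAP1 stood at less than 50% of their sinc level in si, while the other 6 genes tested lay between 78.8% and 114% of it. For 4 of the 8 genes every si library lay below every sinc library (NAGK, GNPNAT1, UAP1 and OGT), for 1 every si library lay above (NANS), and for 3 the groups overlapped. Over all genes tested the groups did not overlap for 34.9%. NAGK and UAP1 passed the threshold, 2 of 8 members, both lower, against 6.00% of all genes tested that passed as lower and 4.14% as higher; since the members were chosen with this comparison known, nothing is read from that count. The median log2 fold change of the 8 was -0.22, and that of all genes tested was 0.0058.

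**Figure D1:**
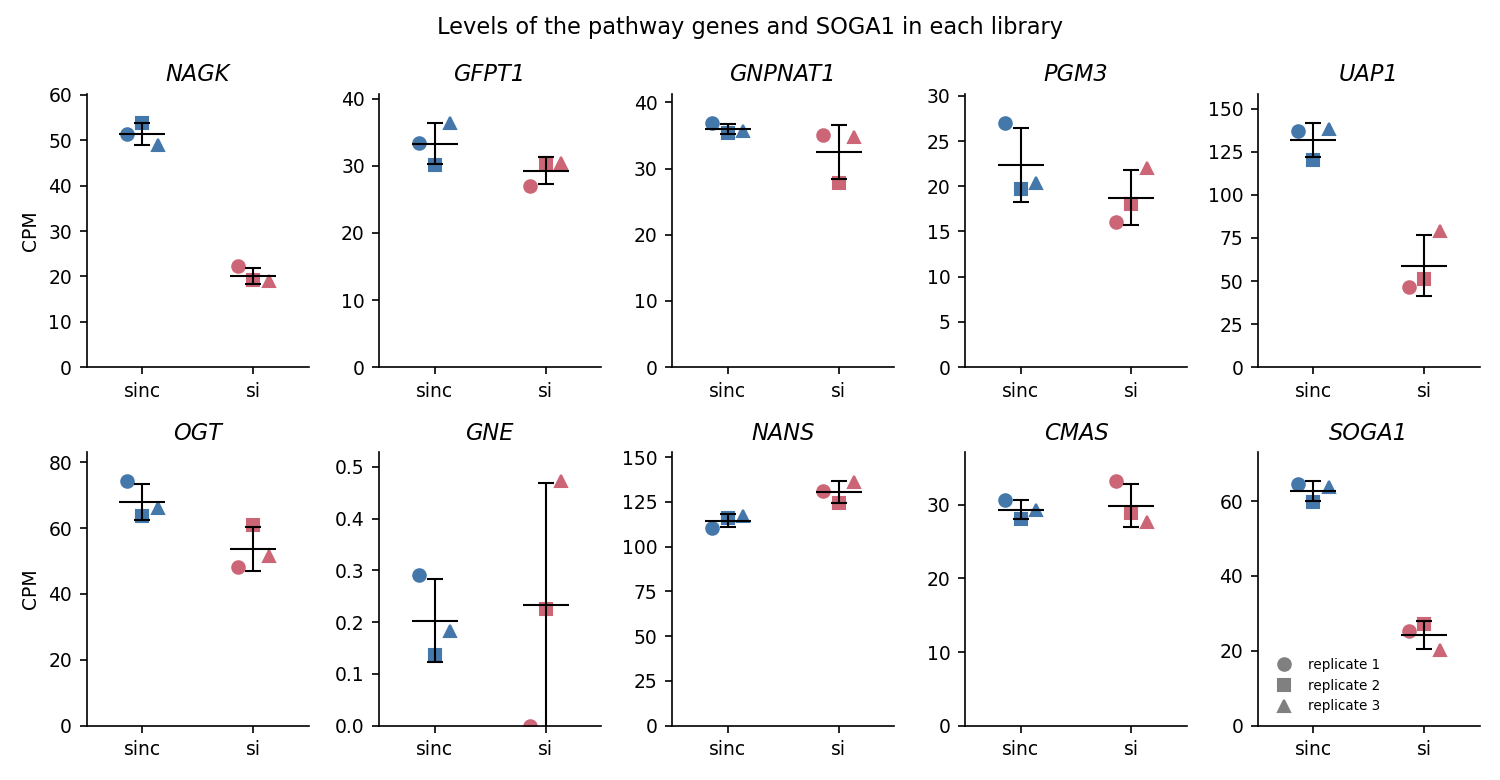
Level of each pathway gene and of SOGA1 in CPM (vertical axes, each from 0), with 1 symbol per library, the sinc group in blue and the si group in red; horizontal lines are means and bars are SD (n = 3). NAGK, UAP1 and SOGA1 show a gap between the groups, and GNE stays under 0.5 CPM in every library.

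NAGK (ENSG00000124357; chr2:71064344-71079805, plus strand), the salvage kinase, was measured at 51.5, 53.8 and 49.0 CPM in sinc replicates 1, 2 and 3. In si replicates 1, 2 and 3 it was measured at 22.2, 19.2 and 18.9 CPM. The 3 libraries of each group lay close together, and the gap between the groups was many times their spread. NAGK averaged 51.4 ± 2.43 CPM over the sinc libraries against 20.1 ± 1.83 CPM over the si libraries (SD, n = 3 per group), which left 39.1% of the sinc level. For SOGA1 itself the share was 38.7%. The log2 fold change of NAGK was -1.35 (SE 0.09), and 89 of the genes tested had a lower one. It lay between -1.44 and -1.32 when each library was left out in turn. After adjusting every library for the length and GC of the transcripts it was -1.51.

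UAP1 (ENSG00000117143; chr1:162561506-162599842, plus strand), which completes UDP-GlcNAc, stood at 137, 121 and 138 CPM in sinc replicates 1, 2 and 3. Its si libraries stood at 46.5, 51.5 and 79.1 CPM. All 3 si libraries were lower than any sinc library, but they were uneven, with si replicate 3 well above the other two. UAP1 averaged 132 ± 9.91 CPM over the sinc libraries against 59.0 ± 17.6 CPM over the si libraries (SD, n = 3 per group), or 44.7% of the sinc level. Its log2 fold change was -1.16 (SE 0.19), with 161 of the genes tested lower. Without si replicate 3 it was -1.44. Without sinc replicate 1 (-1.13) or sinc replicate 3 (-1.13) it no longer passed the threshold. Those fits called 203 of 15873 and 306 of 16027 genes, against 1579 of 15562 in the main fit.

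The 3 enzymes ahead of UAP1 did not pass the threshold. GFPT1 was at 33.5, 30.2 and 36.3 CPM in sinc replicates 1, 2 and 3 and at 27.0, 30.5 and 30.3 CPM in si replicates 1, 2 and 3, with overlapping groups. Its log2 fold change was -0.19 (SE 0.09) and it did not pass. GNPNAT1 was at 36.9, 35.4 and 35.7 CPM in sinc, while its si libraries read 35.1, 27.8 and 34.7 CPM. The groups just failed to overlap, since 2 of the si libraries lay within 1 CPM of the lowest sinc library, and the log2 fold change of -0.15 (SE 0.10) did not pass. PGM3, which the salvage and new-synthesis routes share, was at 27.0, 19.7 and 20.4 CPM in the sinc libraries, followed in si by 16.0, 18.1 and 22.05 CPM. Its highest si library exceeded 2 of the sinc libraries, and the log2 fold change was -0.26 (SE 0.16), not past the threshold. PGM3 overlaps RWDD2A and DOP1A on the opposite strand, and whether the counting used strand is not given in the sources used here, so its counts may include theirs. The adjustment for length and GC turned the sign for GFPT1 (0.34) and GNPNAT1 (0.18), and neither passed with it.

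OGT, the only enzyme known in human cells to attach single N-acetylglucosamine units to nuclear and cytosolic proteins, was at 74.2, 63.8 and 66.1 CPM in sinc replicates 1, 2 and 3. It was at 48.2, 60.9 and 51.6 CPM in si replicates 1, 2 and 3. The si libraries were all lower, with si replicate 2 close to the lowest sinc library. The log2 fold change was -0.34 (SE 0.10), which did not pass. OGT passed without si replicate 2 (-0.45), where 2563 of 15892 genes passed. It also passed by DESeq2 (-0.35), which called 25.8% of the 11333 genes to which it gave an adjusted p. With the adjustment for length and GC the log2 fold change was 0.01.

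In the sialic acid branch NANS and CMAS could be tested, and neither passed the threshold. GNE, its entry enzyme, was close to undetected, with 12, 6 and 7 counts in sinc replicates 1, 2 and 3 and 0, 9 and 16 counts in si replicates 1, 2 and 3. A count of 0 in si replicate 1 allows a level of up to 0.086 CPM (3 counts, counting error only). GNE did not reach the minimum for testing, and no fold change is given. It lies against CLTA on the opposite strand, so even these few counts may not be its own.

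NANS, the sialic acid synthase, was the most abundant member per length. It was at 110, 116 and 117 CPM in sinc replicates 1, 2 and 3 and at 131, 124 and 136 CPM in si replicates 1, 2 and 3. Every si library was higher, by a small margin. The log2 fold change was 0.19 (SE 0.06), which did not pass the threshold; it did with upper-quartile scaling (0.21) and by DESeq2 (0.19), and with the adjustment for length and GC it was 0.02. TRIM14 overlaps NANS on the opposite strand and was counted at a mean of 3661 per library, which limits the value in the same way as for PGM3. CMAS, which activates sialic acid in the nucleus, was at 30.6, 28.0 and 29.3 CPM in the sinc libraries and at 33.2, 28.9 and 27.6 CPM in those of si. Its groups overlapped, with a log2 fold change of 0.03 (SE 0.09).

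**Figure D2:**
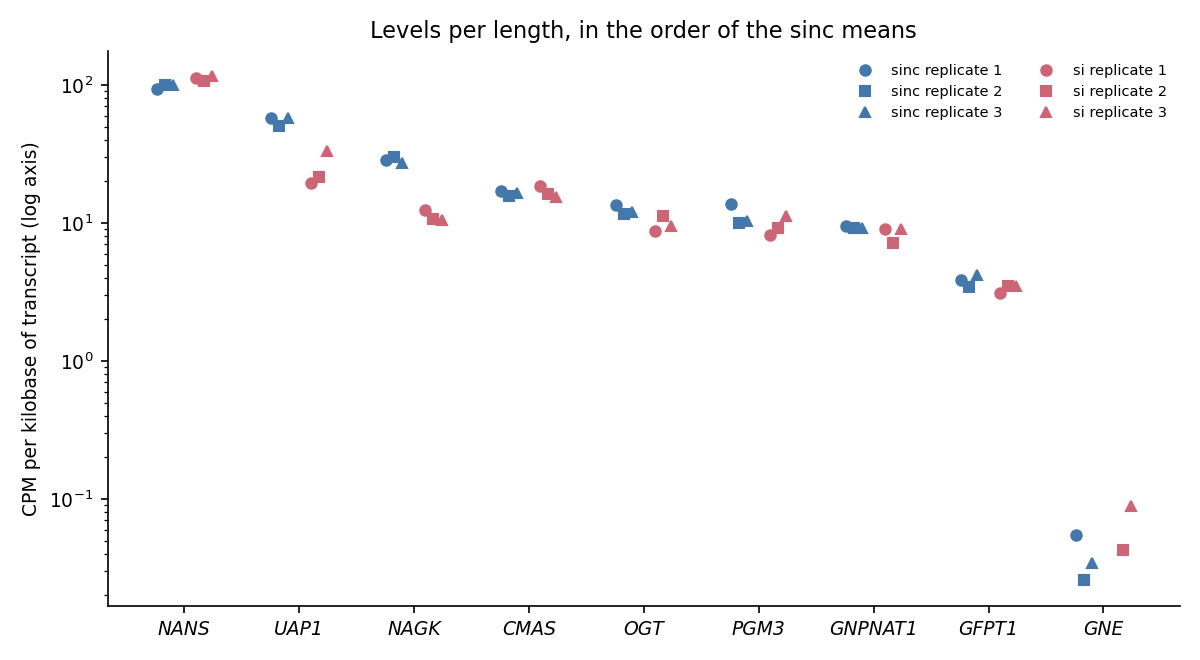
Level per kilobase of transcript (vertical log axis, CPM per kilobase) of the 9 genes, ordered by their sinc mean, with 1 symbol per library, sinc in blue and si in red; the si library with 0 GNE counts cannot be drawn on a log axis. UAP1 and NAGK, which follow NANS in sinc, drop towards the levels of the genes that follow them.

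Per kilobase of the transcript with the longest coding sequence, the sinc levels ran from NANS (97.8 ± 3.08 CPM per kilobase) through UAP1 (55.5 ± 4.17), NAGK (28.5 ± 1.35), CMAS (16.4 ± 0.714), OGT (12.5 ± 1.00), PGM3 (11.3 ± 2.05) and GNPNAT1 (9.32 ± 0.208) to GFPT1 (3.83 ± 0.354) and GNE (0.038 ± 0.015; SD, n = 3 each). From NANS to CMAS each gene differed from the next by more than the spread of the libraries. OGT and PGM3 did not, and nor did PGM3 and GNPNAT1. In si the level of NAGK was 11.2 ± 1.01 CPM per kilobase, close to OGT at 9.81 ± 1.21, and that of UAP1 was 24.8 ± 7.39 (SD, n = 3 each). The position of PGM3 depends on the transcript used: with its longest coding transcript the sinc level was 3.66 CPM per kilobase.

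Around the pathway, 4 lists of genes chosen by function held 3 further genes that passed the threshold, all of them lower in si. These lists too were drawn up with earlier results of these data known, so the adjusted p-values of their genes are not independent tests. Enzymes of amino sugar supply, salvage and breakdown had 14 measured members, of which 1 fell, 0 rose and 13 did not pass, with a median log2 fold change of 0.01. Those that use or carry UDP-GlcNAc had 1 of 16 lower and 0 higher (median -0.06), and those that process, carry or remove sialic acid had 1 of 7 lower and 0 higher (median -0.14). Of the sialyltransferases 0 of 11 tested passed by edgeR; 3 had an unadjusted p under 0.05, beside 29.1% of all genes tested. DESeq2 called 2 of them higher, beside 11.5% called higher among the same 11333 genes. The edgeR shares of 7.14%, 6.25%, 14.3% and 0% stand beside the 10.1% of all genes tested that passed.

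OGA, which removes the sugar that OGT attaches and is listed under its older symbol MGEA5, fell from 75.6, 72.6 and 75.8 CPM in sinc replicates 1, 2 and 3 to 45.8, 58.1 and 52.5 CPM in si replicates 1, 2 and 3. This was a log2 fold change of -0.52 (SE 0.09, adjusted p = 0.0167, edgeR). The call ended without sinc replicate 1, 2 or 3 (largest adjusted p = 0.0844) and with the adjustment for length and GC, which took the change to -0.21. The fits without sinc replicate 1, 2 and 3 called 203, 480 and 306 genes in turn.

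MGAT5, which adds a branch to N-glycans from UDP-GlcNAc, fell from 63.6, 59.0 and 71.1 CPM in the sinc libraries to 49.4, 46.9 and 45.6 CPM in those of si (log2 fold change -0.45, SE 0.08, adjusted p = 0.0197, edgeR). NEU3, a plasma-membrane sialidase that acts on gangliosides, fell from 28.3, 25.7 and 28.98 CPM to 16.0, 16.2 and 19.8 CPM (log2 fold change -0.67, SE 0.11, adjusted p = 0.0145, edgeR). In both the groups did not overlap. Both calls ended when sinc replicate 1 or 3 or si replicate 1 was left out, where the adjusted p lay between 0.0617 and 0.085 by edgeR, and with the adjustment for length and GC (-0.17 for MGAT5 and -0.43 for NEU3). The fits without sinc replicate 1, sinc replicate 3 and si replicate 1 called 203, 306 and 357 genes in turn. The sialyltransferases with the highest CPM, with no account of length, were ST6GALNAC6 and ST3GAL2, which had log2 fold changes of -0.06 (SE 0.06) and 0.30 (SE 0.10).

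**Figure D3:**
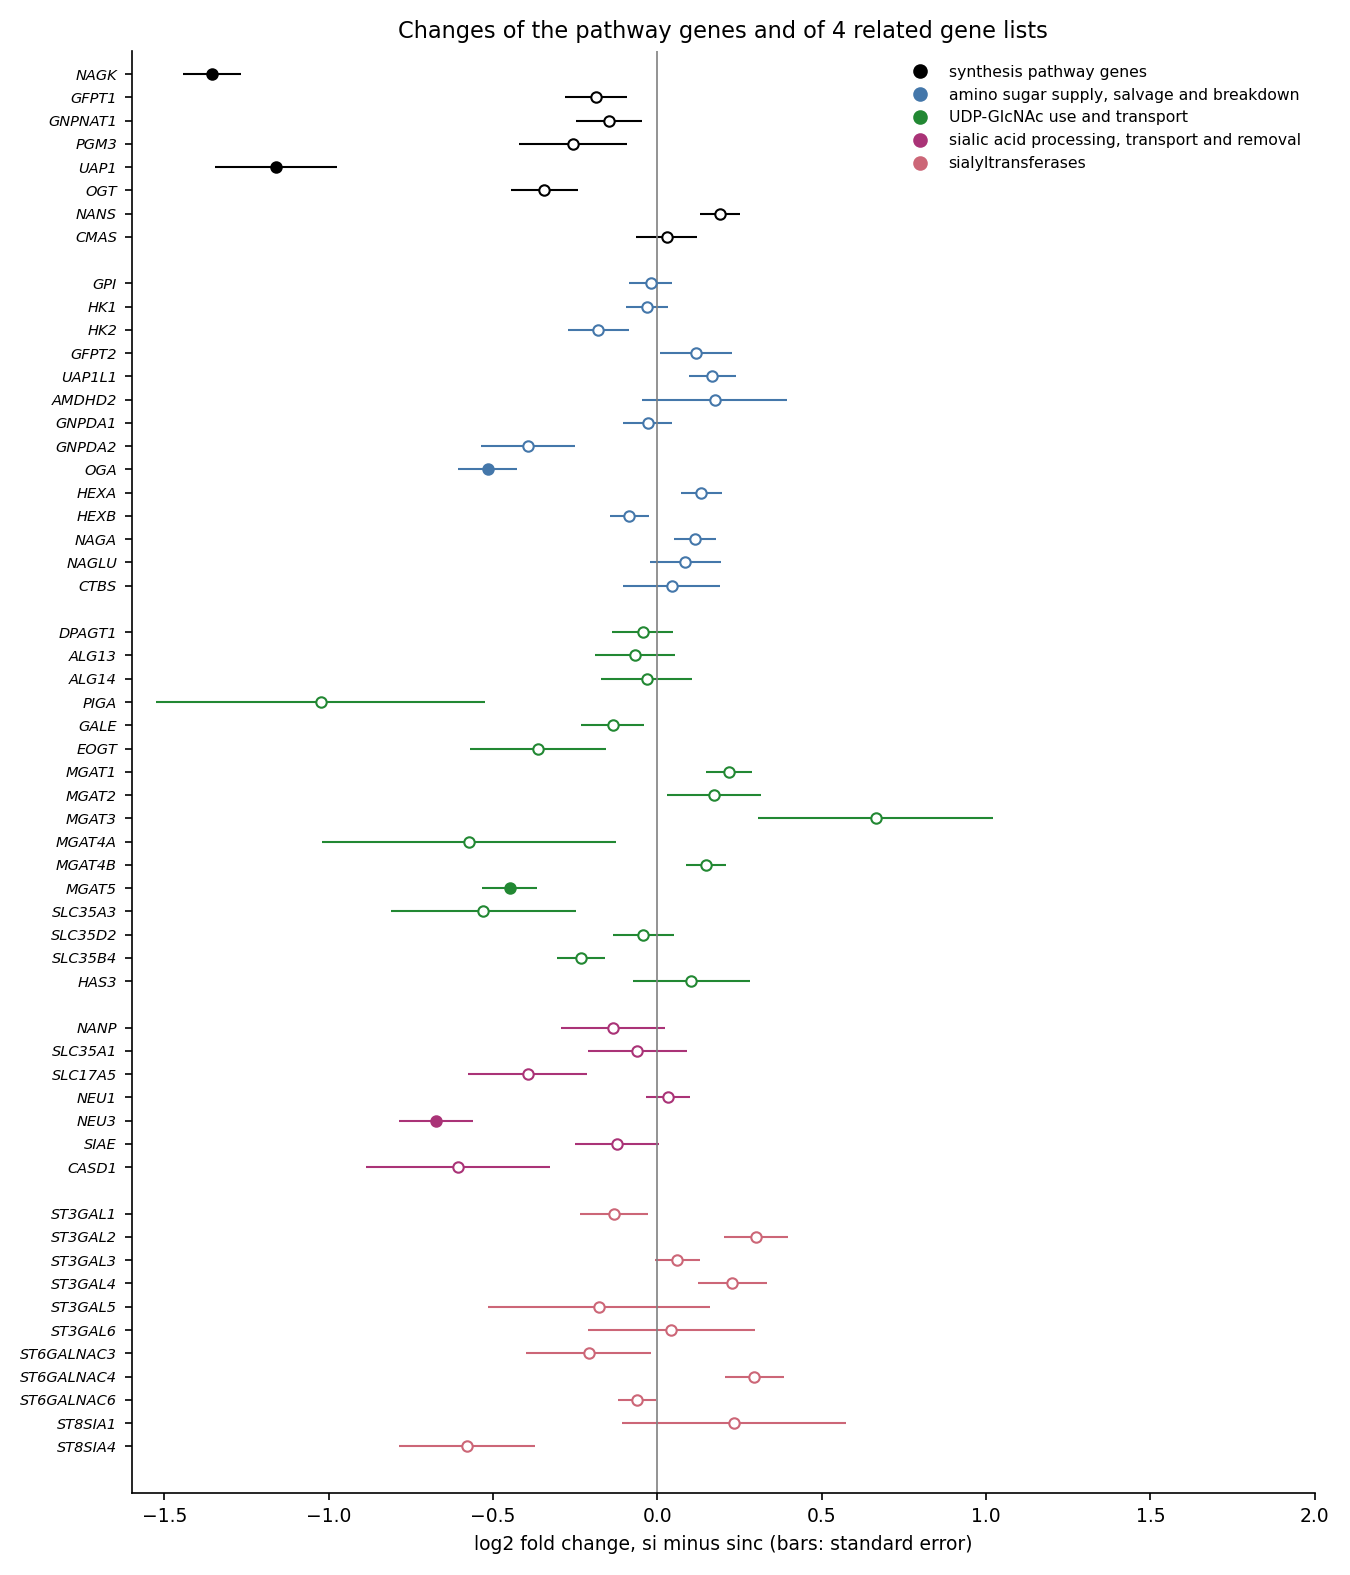
Log2 fold change, si minus sinc (horizontal axis), of the tested pathway genes and of the tested members of 4 related lists, with bars for the standard error; filled symbols passed the threshold. NAGK at -1.35 and UAP1 at -1.16 lie to the left of all other genes drawn, and the other filled symbols are OGA, MGAT5 and NEU3.

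The members differed in what they share with the SOGA1 stretch. The longest run was 13 bases in NAGK, 9 in GFPT1 and UAP1, 8 in GNPNAT1, OGT, GNE and NANS, and 7 in PGM3 and CMAS. For PGM3 it depends on the transcript: over its 15 annotated transcripts the longest run was 10 bases. For the other members it was the same over all annotated transcripts. Over 12748 tested genes with a coding transcript, SOGA1 aside, 1.43% had a run of at least 13 bases and 46.1% one of at least 9. In the window that holds its run, NAGK matched the stretch at 16 of 21 positions, a number that 6.18% of those genes reached in some window. Against the whole SOGA1 transcript the longest shared run was also 13 bases for NAGK, and between 11 and 53 for the others, so a run of that length somewhere in SOGA1 was not particular to NAGK.

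The same 13 bases as in NAGK were found in 29 tested genes. Their log2 fold changes ran from -2.82 for ENO1 to 0.31 for THAP3, and 16 of the 29 were at or below -1, as against 207 of all 12748. Without NAGK the other 28 had a median of -1.09. The stretch was chosen on these fold changes, so the values describe the carriers and test nothing.

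UAP1 has no long run, but it holds the 7-base end of the stretch, TGAAGTA, once, in its coding sequence (exon 8 of 11, chr1:162590338-162590344). The window that ends there matched the stretch at 10 of 21 positions. GNPNAT1 holds the same 7 bases in its 3' UTR and had a log2 fold change of only -0.15. MGAT5 holds them as part of a 10-base run across the junction of exons 16 and 17, and NEU3 holds them in its 3' UTR. NAGK and OGA, which also passed the threshold, do not hold the 7 bases in the transcripts used. Nor do GFPT1, PGM3, OGT, GNE, NANS and CMAS. Among the tested genes 11.5% carried TGAAGTA in the 3' UTR (median log2 fold change -0.31) and 11.5% before it (median -0.26), beside a median of -0.02 for all 12748. Longer transcripts are more likely to hold any given 7 bases, and these medians are not adjusted for length. The 7 bases were chosen because their 3' UTR carriers lay lowest in this comparison, with length taken into account. The medians therefore describe the carriers and test nothing.

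**Figure D4:**
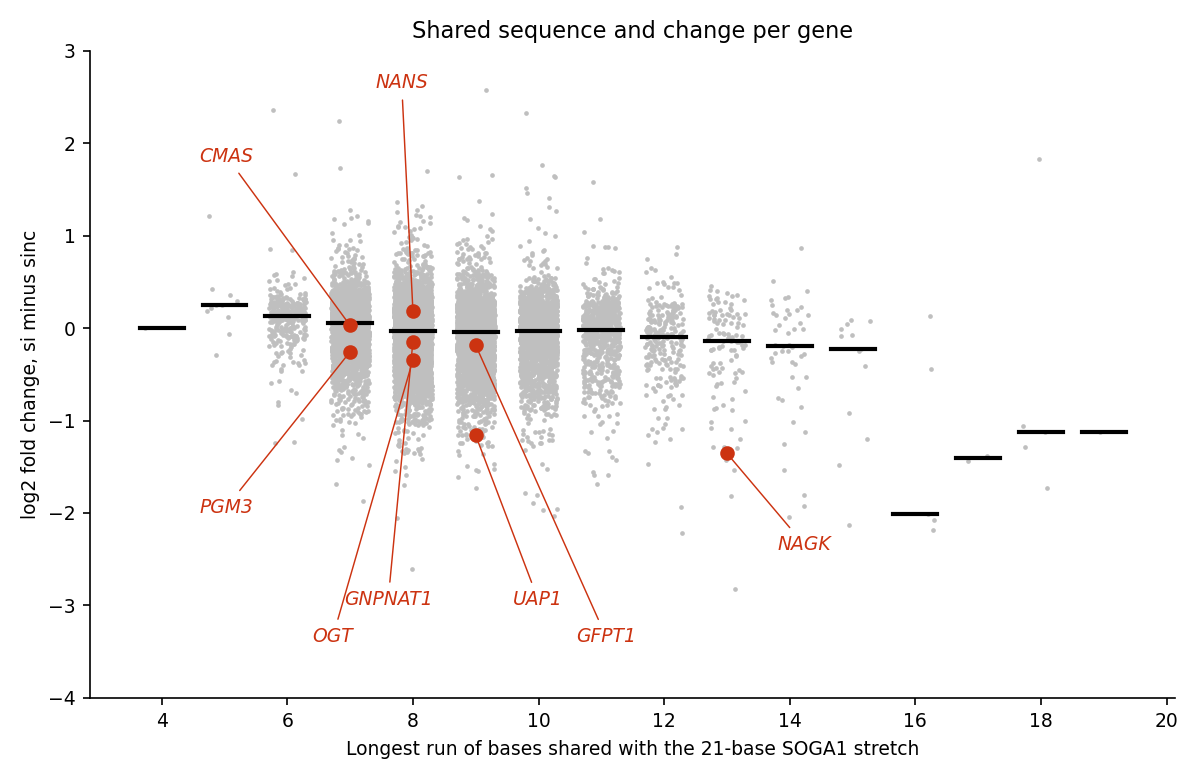
Log2 fold change, si minus sinc (vertical axis), of 12748 tested genes against the longest run of bases each shares with the 21-base SOGA1 stretch (horizontal axis, bases, points spread sideways within a value); black bars are medians, red points the pathway genes, and 3 genes lie outside the range drawn. NAGK stands at 13 bases, where the median is -0.13. In the transcripts used, the other pathway genes stand at 7 to 9 bases, where the medians lie between -0.04 and 0.05.

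The genes beside NAGK on the chromosome were compared in the same way. Of 23 annotated genes within 250 kb on either side in GENCODE 29, 10 were tested, and 0 passed the threshold by edgeR, where 10.1% of all genes tested did. At an unadjusted p under 0.05, 1 was lower (MPHOSPH10) and 1 higher (ANKRD53), beside 29.1% of all genes tested. The groups did not overlap for 3 of the 10, all higher in si, beside 18.1% of all genes tested that were higher in this way. With so few genes, these counts do not set the neighbours apart from other genes. TEX261, which had the highest CPM of them, averaged 147 ± 8.57 CPM over the sinc and 147 ± 7.06 CPM over the si libraries (SD, n = 3 per group), and the nearest tested gene downstream, MCEE, had a log2 fold change of 0.57 (SE 0.30, adjusted p = 0.25, edgeR). The lowest of the 10 was MPHOSPH10, a nucleolar protein gene, at -0.67 (SE 0.25, adjusted p = 0.12, edgeR). DESeq2, which called 25.8% of 11333 genes, and the fit without si replicate 2, which called 2563 of 15892, each called MPHOSPH10 lower. The fit without si replicate 2 also called ZNF638 lower, which stood at 7.48, 26.1 and 9.92 CPM in si replicates 1, 2 and 3.

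Over the 6 libraries, the genes whose log2 CPM ran most like that of NAGK were NDUFS8, KMT5A, WDR73, ZBTB39 and SH2B3, with Pearson's r between 0.996 and 0.999. The libraries fall into 2 groups, so that this measure mostly reflects the gap between them. NDUFS8, a complex I subunit, averaged 84.8 ± 2.21 CPM over the sinc and 39.8 ± 2.86 CPM over the si libraries (SD, n = 3 per group). WDR73 averaged 39.5 ± 3.58 and 16.1 ± 0.620 CPM in turn, with a log2 fold change of -1.29 (SE 0.09) that was nearest to that of NAGK. The longest runs shared with the SOGA1 stretch were 13 bases in WDR73, 12 in NDUFS8, 10 in ZBTB39 and 9 in KMT5A and SH2B3. The 13 bases of WDR73 lie in its 3' UTR and are not the same 13 as in NAGK. Of the 12748 tested genes with a coding transcript, 3.29% had a run of at least 12 bases and 46.1% one of at least 9. Both these genes and the stretch were chosen on values of this comparison, so their runs test nothing.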

How the data were processed

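Per the labels' protocols, libraries were built from poly(A) RNA with dUTP marking of the strand. The authors deposited 1 table of whole-number counts per gene for 6 libraries. CASAVA and StringTie were used, per the submitters' processing notes; which aligner, genome build, annotation and strand setting of the counting applied is not given in the sources used here. Each column name matched 1 sample's label. Among the deposited symbols 773 were placeholders and 10 had become dates, and these were replaced from a reference name table that matched 26567 of 26699 gene IDs. List genes with no row were not analysed here.

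The main test was that of edgeR 4.0.16 under R 4.3.3 (filterByExpr at a minimum count of 10, TMM scaling, glmQLFTest, group as the only term, two-sided, Benjamini-Hochberg over 15562 genes). On counts simulated for this comparison over 15562 genes, it found 14 of 69 true log2 changes of size 0.5, 41 of 62 of size 1 and 60 of 69 of size 2, and 9 of its 124 calls were false. Far fewer genes were changed there than the 1579 that passed in the data, so these rates may not carry over. SE was taken from each log2 fold change (its size divided by the root of F). F uses a dispersion moderated across genes, so the SE of a gene is not its own spread alone. The common biological coefficient of variation was 18.8%. The alternatives tried were scaling by RLE, by the upper quartile and by total counts, no filter, a minimum count of 50, DESeq2 1.42.0, voom in limma 3.58.1, the replicate number as a block, an adjustment for transcript length and GC (natural splines, 4 degrees of freedom each, on genes with a coding transcript), and each library left out. Within each group any pair of libraries was further apart than counting noise allows, with a chi-square per gene of 14.5 to 61.4. PCR copies were not told apart, so limits from counts cover counting error only.

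Positions, lengths and sequences are from GENCODE 29 on GRCh38, with the transcript of longest coding sequence per gene. To find the 7-base sequence, fold changes were regressed on length and GC content of transcript and 3' UTR and on abundance, with squares, and sequences were ranked by the mean residual difference over its standard error.

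The members, lists and the SOGA1 stretch were chosen with earlier results of these data known. Named are the members, SOGA1, per list up to 4 genes that passed or else the 2 most abundant, the tested genes beside NAGK, and the 5 genes (mean of at least 5 CPM) most correlated with NAGK; ENO1 and THAP3 were named after their values were seen, as were the genes that overlap a member.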

Additional observations from a re-analysis of the deposited data

How the results depend on the processing

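The count of genes past the threshold was 844 without a filter, 2926 by DESeq2, 438 with the replicate number as a block and 678 with the adjustment for length and GC (1899 on the same genes without it), and lay between 203 and 2563 with 1 library left out. Of the synthesis genes 4 passed by DESeq2 (25.8% of all genes with an adjusted p did), and between 1 and 3 with 1 library left out; over the 16 alternatives the log2 fold change lay between -1.51 and -1.32 for NAGK and between -1.44 and -1.02 for UAP1. With the block, 0 genes passed in the lists of amino sugar supply and of UDP-GlcNAc use; with the length and GC adjustment 0 passed in these and in the list of sialic acid processing. By DESeq2, 2 passed in the list of UDP-GlcNAc use and 2 sialyltransferases. With 1 library left out, amino sugar supply and UDP-GlcNAc use each had between 0 and 1, and sialic acid processing and the sialyltransferases between 0 and 2. The causes were not tested. Whether the replicate numbers pair the samples is not stated in the labels. The deviations of same-numbered libraries correlated at -0.18, -0.03 and 0.15, and those of differently numbered ones between -0.28 and 0.32. With 3 libraries per group these values cannot settle whether the samples were paired. With the block OGA and MGAT5 did not pass (adjusted p = 0.0501 and 0.0608 by edgeR), at log2 fold changes of -0.52 and -0.45, the same to 2 decimals as without it. SOGA1 passed in all 16 alternatives, between -1.47 and -1.13. At this depth GNE, with 0 to 16 counts per library, was too low to test.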
